A study of Mus musculus with 16 samples.

Results

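Livers of male and female mice that lack the fatty acid transport protein FATP2 were compared, to find which liver programs differ between the sexes when FATP2 is absent. The comparison held 4 male Fatp2-/- livers (mice black629, black638, black650 and black693) and 4 female Fatp2-/- livers (black631, black643, black634 and black652), 8 of the 16 livers of the series. Their sex and genotype were taken from the labels deposited with the libraries. The other 8 livers, from 4 male and 4 female control mice of the C57BL/6 strain, gave the same contrast with FATP2 present. All mice were 11 weeks old and had free access to standard chow, and polyadenylated RNA of whole liver was sequenced. The Fatp2-/- mice carried the null allele in every tissue from conception, in a line made in SV129 mice and backcrossed to C57BL/6, whereas the control mice were bought from Jackson Laboratories. The allele carries a neomycin-resistance cassette in place of an exon, so reads from the exons that remain can still be counted. Whether livers were taken after a fast, and at which hour, was not given in the sources used here. Results are given for autosomal genes, of which 12958 had enough counts to be tested in the Fatp2-/- livers.

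The liver of the mouse is one of the tissues whose gene expression differs most between the sexes. In males the pituitary releases growth hormone in pulses and in females almost continuously, and hepatocytes read that pattern through the growth hormone receptor and the transcription factor STAT5b, which acts with repressors such as BCL6 in males and CUX2 in females. Male-biased programs include major urinary proteins, several cytochromes P450 that hydroxylate testosterone and parts of the complement system, and female-biased programs include sulfotransferases, flavin monooxygenases and other cytochromes P450. FATP2 is a membrane-bound protein that moves long-chain fatty acids into cells and activates very long-chain ones, and PPARalpha is the nuclear receptor through which fatty acids switch on their own oxidation.

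The labels were checked on the targeted gene and on the sex chromosomes. Levels are given as CPM, counts scaled to a library of 1000000 after correction with TMM factors. Values of males stand in the order black629, black638, black650 and black693, and values of females in the order black631, black643, black634 and black652. Slc27a2, the gene of FATP2 on chromosome 2, stood at 110.4, 106, 122 and 109 CPM in male Fatp2-/- livers, against 129, 112, 76.0 and 149.5 CPM in female Fatp2-/- livers, while male and female controls held at least 507 CPM each. Within the Fatp2-/- livers the sexes overlapped in Slc27a2 (log2 difference -0.09, S.E. 0.18, adjusted p = 0.805). Xist, the X-linked RNA that silences the inactive X chromosome of females, was at most 1.51 CPM in every male Fatp2-/- liver and at least 462 CPM in every female Fatp2-/- liver, so no liver of the comparison went against its labelled sex.

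Total counts per Fatp2-/- library ran between 15546751 and 18237325. Markers of neighbouring tissues stood out in some libraries. The 16 skeletal muscle markers summed to 5077 CPM in black693 and 264 CPM in black652, with no more than 3.58 CPM in any other male and 2.60 CPM in any other female. The 16 exocrine pancreas markers summed to 396 CPM in black638 and 217 CPM in black693, with 41.6 to 49.2 CPM in the remaining males and 13.8 to 16.05 CPM in the 4 females. The 10 hepatocyte markers summed to 85260 to 106017 CPM in males and 75281 to 117061 CPM in females, and none of the 10 was called. Counts that lead a paragraph were therefore also taken without black693 and black652, and without black638 and black693.

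Between male and female Fatp2-/- livers, 393 autosomal genes were higher in males and 488 were lower in males, which is 3.03% and 3.77% of the 12958 tested. These shares are to be read beside the counts of every gene list below. A gene counts as called, here and in what follows, at an adjusted p of at most 0.05 in edgeR's quasi-likelihood test with Benjamini-Hochberg adjustment, and every log2 difference is male over female. The median log2 difference was 0.88 over the genes called higher and -0.89 over those called lower, against -0.00 over all tested genes. Differences of at least 2-fold were found for 178 genes called higher and 215 called lower, and differences of at least 8-fold for 35 and 37. In 847 of the 881 called genes the 4 male and the 4 female values did not overlap, against 1954 of all tested genes, or 15.1%. Without black693 and black652 the counts were 357 higher and 440 lower, and without black638 and black693 they were 279 and 322. Leaving out 1 mouse moved them by over 1.5 times for black629 (252 higher, 252 lower), black650 (258 and 277) and black631 (243 and 245), and moved the lower count alone for black638 (307) and black643 (283). In each mouse the RNA of all liver cells was read together, so fewer cells of a type and less RNA per cell cannot be told apart.

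Genes nearly without counts in males led the female side. Sult3a1, a cytosolic sulfotransferase on chromosome 10 that conjugates amines, stood at 0, 0, 0.138 and 0 CPM in male Fatp2-/- livers, against 1053, 96.6, 260.4 and 147 CPM in female Fatp2-/- livers. Only 2 counts fell in the 4 male libraries together against 28368 in the females, a ratio of 12600 with a 95% counting interval of 3470 to 104000 (adjusted p = 0.000182). The females themselves spread 10.9-fold in this gene, with black631 far above the others. Its neighbour Sult3a2 gave no count in any male and 205, 7.05, 30.4 and 7.62 CPM in females, at least 1360-fold lower in males against a floor of 3 counts over the group (adjusted p = 0.0276). Again black631 was the highest female, and the call was lost under 5 of 16 alternative settings. A1bg, which encodes a plasma glycoprotein and lies on chromosome 15, stood at 0, 0, 0.275 and 0.187 CPM in male Fatp2-/- livers, against 461, 278, 2927 and 171 CPM in female Fatp2-/- livers. All females were far above all males (log2 difference -12.98, S.E. 1.41, adjusted p = 0.000364), with black634 the highest of them.

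Slc22a26, an organic anion transporter on chromosome 19, varied less between females, at 0.343, 0, 0.0689 and 0.125 CPM in male Fatp2-/- livers, against 133, 130.0, 118 and 83.2 CPM in female Fatp2-/- livers. The females spread 1.60-fold and the males were near 0 (log2 difference -9.75, S.E. 0.37, adjusted p = 1.32e-07). Cux2, the repressor that marks the female pattern, stood at 0.412, 1.35, 1.10 and 1.75 CPM in male Fatp2-/- livers, against 90.4, 55.6, 47.6 and 81.9 CPM in female Fatp2-/- livers. The mean of females was 59.7 times that of males (log2 difference -5.90, S.E. 0.34, adjusted p = 2.99e-06). Hao2, a peroxisomal hydroxy acid oxidase, had 3 counts in all males and 1817 in the females, a ratio of 536 with a counting interval of 183 to 2600 (adjusted p = 0.000754). Its female values were 33.9, 24.1, 43.8 and 3.06 CPM, black652 being far below the other 3. The Hao2 call was lost under 1 of 16 alternatives, limma-voom (adjusted p = 0.0623).

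Others among the 12 largest decreases were cytochromes P450, a metallothionein and a transcription factor. Cyp2b9, a steroid hydroxylase, stood at 2.13, 0.0588, 1.24 and 0.312 CPM in male Fatp2-/- livers, against 379.6, 637, 429.7 and 287 CPM in female Fatp2-/- livers. The lowest female held 135 times the CPM of the highest male (log2 difference -8.92, S.E. 0.57, adjusted p = 6.78e-06). Cyp2b13 and Cyp3a16 had no count in any male. Their female values were 27.1, 27.8, 23.7 and 7.78 CPM for Cyp2b13, at least 441-fold lower in males (adjusted p = 0.000372), and 64.8, 15.6, 50.9 and 3.81 CPM for Cyp3a16, at least 706-fold lower in males (adjusted p = 0.00891). In both genes black652 was the lowest female. Cyp3a16 lost its call under 1 of 16 alternatives, limma-voom (adjusted p = 0.0522). Mt2, a metal-binding metallothionein, stood at 0.961, 0.647, 0.620 and 1.06 CPM in male Fatp2-/- livers, against 114, 46.7, 4.19 and 17.8 CPM in female Fatp2-/- livers. The females spread 27.2-fold, and all lay above the males (log2 difference -5.81, S.E. 0.96, adjusted p = 0.00525). The Mt2 call was lost under 1 of 16 alternatives, limma-voom (adjusted p = 0.138). Tcf24, a basic helix-loop-helix factor, stood at 0.137, 0.177, 0.0689 and 0.0625 CPM in male Fatp2-/- livers, against 5.99, 5.79, 5.55 and 3.92 CPM in female Fatp2-/- livers. Its levels were low, and the groups were well apart (log2 difference -5.49, S.E. 0.33, adjusted p = 3.84e-06).

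**Figure D1:**
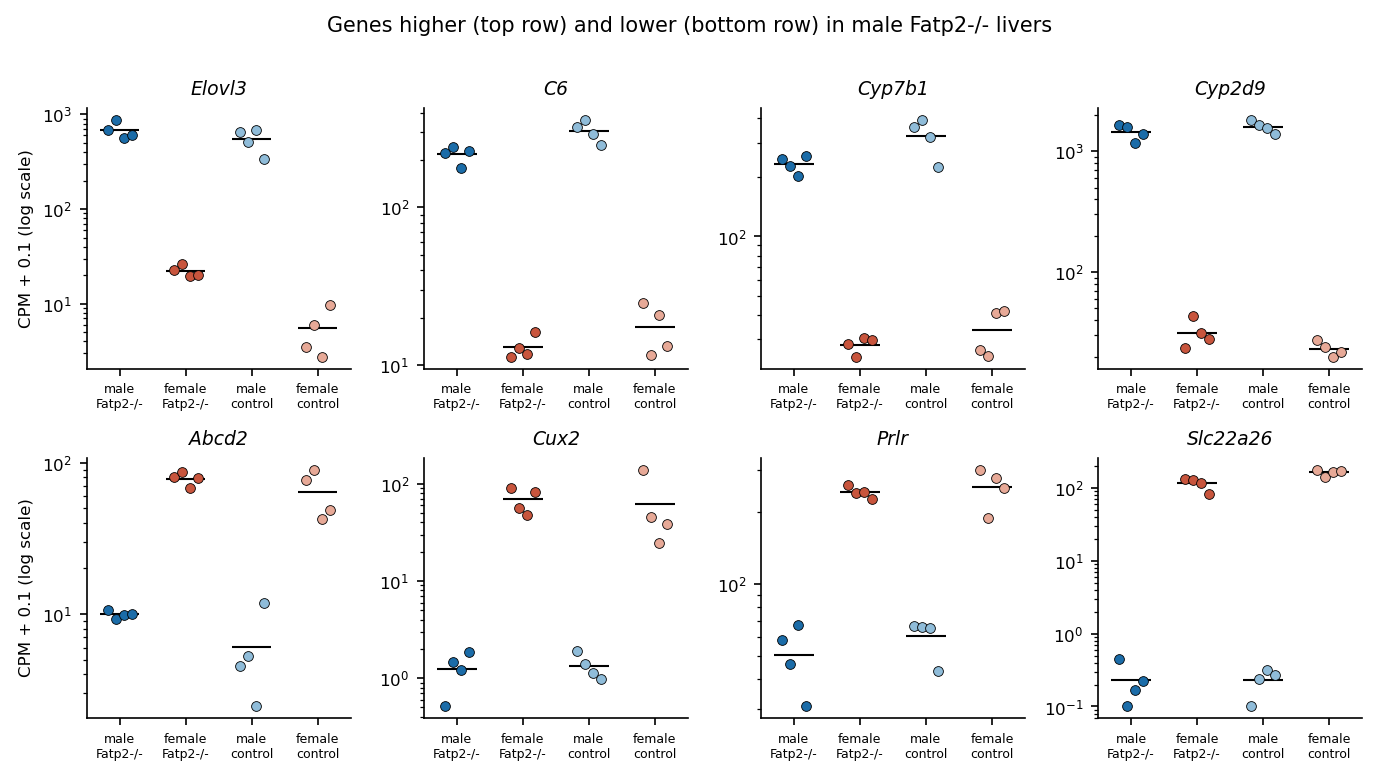
CPM of 8 genes in each mouse, with 0.1 added on a log scale and 1 point per mouse, the line marking the group mean, for male and female Fatp2-/- and male and female control livers. In the top row (Elovl3, C6, Cyp7b1, Cyp2d9) all 4 male Fatp2-/- livers lie above the 4 female ones, in the bottom row (Abcd2, Cux2, Prlr, Slc22a26) all lie below, and control livers show the same order of the group means.

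The 12 largest increases in males included the lipid droplet gene Cidea and the urinary protein genes Mup20 and Mup21, described with their groups. Pitx3, a homeodomain factor best known from the lens and from dopamine neurons, stood at 43.3, 79.0, 44.4 and 40.5 CPM in male Fatp2-/- livers, against 0.910, 0.567, 0.236 and 0.590 CPM in female Fatp2-/- livers. The lowest male was 44.5 times the highest female (log2 difference 6.43, S.E. 0.34, adjusted p = 1.51e-06). Cyp2d9, a testosterone 16alpha-hydroxylase, stood at 1661, 1575, 1164 and 1385 CPM in male Fatp2-/- livers, against 23.4, 43.5, 31.4 and 27.6 CPM in female Fatp2-/- livers. The lowest male was 26.8 times the highest female (log2 difference 5.50, S.E. 0.22, adjusted p = 1.65e-07). Nat8f5, of the N-acetyltransferase 8 family, stood at 26.6, 25.8, 15.8 and 21.5 CPM in male Fatp2-/- livers, against 0.375, 0.252, 0.767 and 0.0536 CPM in female Fatp2-/- livers. The females were near 0 and the males were not (log2 difference 5.92, S.E. 0.39, adjusted p = 9.08e-06). Slc35f1, a member of a nucleotide sugar transporter family, stood at 4.60, 4.18, 2.00 and 2.00 CPM in male Fatp2-/- livers, against 0.0535, 0.0630, 0.118 and 0 CPM in female Fatp2-/- livers. The 4 females held 4 counts and the males 199, a ratio of 56.2 with a counting interval of 21.6 to 208 (adjusted p = 0.000219), and in control livers, at no more than 1.55 CPM, it was too low to be tested.

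Members of the serpin cluster on chromosome 12, which encodes protease inhibitors secreted into plasma, were among the leading male genes. Serpina1e, an alpha-1-antitrypsin copy, stood at 3128, 4246, 1261 and 2973 CPM in male Fatp2-/- livers, against 87.5, 42.3, 83.6 and 107 CPM in female Fatp2-/- livers. The mean of males was 36.2 times that of females (log2 difference 5.15, S.E. 0.42, adjusted p = 4.34e-05). Serpina3f, an alpha-1-antichymotrypsin copy, stood at 427, 119, 179 and 303 CPM in male Fatp2-/- livers, against 5.78, 2.02, 5.72 and 18.8 CPM in female Fatp2-/- livers. The lowest male was 6.30 times the highest female (log2 difference 4.96, S.E. 0.64, adjusted p = 0.00108). Serpina12, which encodes vaspin, stood at 55.8, 71.0, 60.1 and 87.2 CPM in male Fatp2-/- livers, against 2.73, 1.76, 7.14 and 5.26 CPM in female Fatp2-/- livers, and here too the groups did not overlap (log2 difference 3.99, S.E. 0.35, adjusted p = 8.3e-05). Serpina3k, another antichymotrypsin copy, differed less, with a log2 difference of 1.34 (adjusted p = 0.0007). The cluster did not move as a block. Serpina3m and Serpina6, the corticosteroid-binding globulin, were lower in males, with log2 differences of -1.04 and -1.03 (adjusted p = 0.000398 and 0.0105). Near-identical copies in this cluster can share reads, so the split between copies is uncertain. Predicted genes were also among the largest increases: Gm4450 had a log2 difference of 5.20 (adjusted p = 0.00136), and Gm12718 and Gm31121, with 2 counts each in all females, were higher in males by ratios of 84.2 (counting interval 22.9 to 702) and 87.6 (23.8 to 730).

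A list of genes known to be male-biased in liver had 22 tested members, of which 21 were called higher in males and none lower. The median log2 difference was 3.25 against -0.00 over all autosomal genes tested. The list was chosen with earlier results of these data known, so its count is a description and not independent support. Elovl3, on chromosome 19, which elongates very long-chain fatty acids, stood at 684, 879, 557 and 607 CPM in male Fatp2-/- livers, against 22.8, 25.9, 19.4 and 19.8 CPM in female Fatp2-/- livers. The lowest male was 21.5 times the highest female (log2 difference 4.93, S.E. 0.18, adjusted p = 1.32e-07). C6, a component of the membrane attack complex, stood at 223, 240.4, 178 and 227 CPM in male Fatp2-/- livers, against 11.2, 12.8, 11.6 and 16.1 CPM in female Fatp2-/- livers. Males and females were each tightly grouped (log2 difference 4.05, S.E. 0.15, adjusted p = 1.32e-07). Cyp7b1, the oxysterol 7alpha-hydroxylase, stood at 246, 229, 202 and 255 CPM in male Fatp2-/- livers, against 28.1, 24.4, 30.2 and 29.7 CPM in female Fatp2-/- livers, again without overlap (log2 difference 3.03, S.E. 0.12, adjusted p = 1.33e-07). Cyp2u1, a fatty acid hydroxylase, had a log2 difference of 3.94 (adjusted p = 1.36e-06), and Nat8, which acetylates cysteine conjugates, of 4.34 (adjusted p = 3.12e-06). Smaller differences were those of Rarres1 at 1.38, Keg1 at 1.49 and Egfr, the receptor of epidermal growth factor, at 1.31 on the log2 scale. Col5a3, a fibrillar collagen chain outside that list, was also strongly male-biased, with a log2 difference of 3.54 (adjusted p = 1.63e-07). The list count stayed between 17 and 23 under all alternative settings, 17 being that of a filter that left 18 members.

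A list of genes known to be female-biased in liver had 28 tested members, of which 23 were called lower in males and none higher, with a median log2 difference of -3.35. This list too was chosen with earlier results of these data known, so its count is likewise only a description. Abcd2, a peroxisomal transporter of very long-chain acyl-CoA, stood at 10.5, 9.24, 9.71 and 9.87 CPM in male Fatp2-/- livers, against 79.9, 86.2, 68.4 and 78.5 CPM in female Fatp2-/- livers. Both groups were tight and far apart, with the adjusted p of C6, Elovl3 and Slc22a26 (log2 difference -3.01, S.E. 0.11, adjusted p = 1.32e-07). Prlr, the prolactin receptor, stood at 58.4, 46.1, 67.2 and 30.7 CPM in male Fatp2-/- livers, against 258, 239.7, 243 and 227 CPM in female Fatp2-/- livers, and no male came near a female (log2 difference -2.28, S.E. 0.20, adjusted p = 8.76e-05). Slco1a4, an uptake carrier of bile acids and drugs, stood at 2.27, 3.71, 1.65 and 2.56 CPM in male Fatp2-/- livers, against 66.4, 58.3, 36.7 and 16.6 CPM in female Fatp2-/- livers. Its lowest female, black652, was still 4.49 times the highest male (log2 difference -4.13, S.E. 0.43, adjusted p = 0.000264). Atp6v0d2, a subunit of the vacuolar proton pump, had a log2 difference of -3.27 (adjusted p = 0.00032), and Tox, a nuclear factor of lymphocytes and liver, of -1.45 (adjusted p = 0.00923). Outside the list, the cell cycle gene Ccnd1 (log2 difference -2.60, adjusted p = 3.26e-05) and the secreted factor Fgl1 (log2 difference -2.06, adjusted p = 1.09e-05) were also lower in males, and Mcm10, of DNA replication, was higher (2.24, adjusted p = 4.16e-05). A filter asking for 10 counts in every library left 13 members of the list with 10 called lower, since it removes genes with few counts in males.

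Promoters are shown for 5 of the genes that separated the sexes, since STAT5 binds the palindrome TTCNNNGAA, in which N is any base. Each was picked after its values were seen, from called genes that hold the motif. Sequences are RefSeq promoter windows of the GRCm38.p6 assembly, 250 bases before to 50 bases after a start, written 5′ to 3′ on the strand of the gene, with the motif in capitals. Sult3a1, A1bg and Slc22a26 were lower in males, and C8a and Serpina3f were higher.
Sult3a1, chr10:33857472-33857771 (plus strand): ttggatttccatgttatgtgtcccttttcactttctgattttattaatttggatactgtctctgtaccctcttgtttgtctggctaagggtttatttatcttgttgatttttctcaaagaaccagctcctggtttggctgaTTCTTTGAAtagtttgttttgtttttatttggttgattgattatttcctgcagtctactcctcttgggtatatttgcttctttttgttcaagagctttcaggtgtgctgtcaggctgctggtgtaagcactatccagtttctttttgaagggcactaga
A1bg, chr15:60921221-60921520 (minus strand): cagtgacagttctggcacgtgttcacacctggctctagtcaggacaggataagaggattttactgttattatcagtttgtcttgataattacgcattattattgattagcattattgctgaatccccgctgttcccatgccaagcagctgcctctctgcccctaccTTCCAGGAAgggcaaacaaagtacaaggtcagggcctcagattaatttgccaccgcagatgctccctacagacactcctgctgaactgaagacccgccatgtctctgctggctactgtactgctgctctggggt
Slc22a26, chr19:7802618-7802917 (minus strand): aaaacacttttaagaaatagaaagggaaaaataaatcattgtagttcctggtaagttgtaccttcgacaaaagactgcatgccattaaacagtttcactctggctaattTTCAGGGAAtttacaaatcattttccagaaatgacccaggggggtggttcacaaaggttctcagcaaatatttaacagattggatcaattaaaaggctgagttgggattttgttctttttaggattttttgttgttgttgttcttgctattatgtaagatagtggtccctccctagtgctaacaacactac
C8a, chr4:104876349-104876648 (minus strand): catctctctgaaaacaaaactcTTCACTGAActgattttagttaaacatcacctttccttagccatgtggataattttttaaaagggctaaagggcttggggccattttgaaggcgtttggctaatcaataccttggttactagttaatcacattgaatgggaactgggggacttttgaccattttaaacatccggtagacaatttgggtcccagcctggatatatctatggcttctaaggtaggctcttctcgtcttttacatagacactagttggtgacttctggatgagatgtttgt
Serpina3f, chr12:104214294-104214593 (plus strand): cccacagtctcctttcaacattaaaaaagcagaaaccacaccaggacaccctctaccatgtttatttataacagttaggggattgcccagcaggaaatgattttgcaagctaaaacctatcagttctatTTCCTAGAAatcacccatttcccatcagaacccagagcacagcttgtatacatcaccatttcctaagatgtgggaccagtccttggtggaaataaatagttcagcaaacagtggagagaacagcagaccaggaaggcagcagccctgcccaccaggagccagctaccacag

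The motif begins 109 bases before the start in Sult3a1, 84 in A1bg, 141 in Slc22a26, 228 in C8a and 121 in Serpina3f. The palindrome reads the same on both strands. Of 366 windows of genes called higher in males, 8.47% held it, and of 480 windows of genes called lower in males, 5.42%, against 6.88% of 11912 windows of all autosomal genes tested that could be matched by symbol. Among genes called with at least a 2-fold difference the shares were 7.69% of 156 windows for those higher in males and 8.95% of 190 windows for those lower. Windows matched 9283 of 12224 tested genes with a unique symbol. A match in these windows is a description of letters, and STAT5 binding was not measured.

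Growth hormone signaling and the regulators of sex bias formed a list of 34 tested genes, of which 7 were called lower in males and 1 higher, with a median log2 difference of -0.11. The receptor and the signal transducer were not called. Ghr, the growth hormone receptor, stood at 595, 623, 683 and 538 CPM in male Fatp2-/- livers, against 566, 472, 455 and 529 CPM in female Fatp2-/- livers, and the groups overlapped (log2 difference 0.25, S.E. 0.12, adjusted p = 0.23). Stat5b stood at 84.7, 97.8, 100.3 and 94.96 CPM in male Fatp2-/- livers, against 112, 136, 90.5 and 122 CPM in female Fatp2-/- livers, also with overlap (log2 difference -0.31, S.E. 0.13, adjusted p = 0.166). Igf1, the main hormone that growth hormone induces in liver, stood at 568, 449, 550.3 and 463 CPM in male Fatp2-/- livers, against 678, 515, 599 and 716 CPM in female Fatp2-/- livers and was not called (log2 difference -0.33, S.E. 0.14, adjusted p = 0.175). Ntrk2, a neurotrophin receptor, stood at 0.412, 0.235, 0.826 and 2.19 CPM in male Fatp2-/- livers, against 1.23, 4.34, 1.59 and 0.965 CPM in female Fatp2-/- livers and was not called (log2 difference -1.15, S.E. 0.66, adjusted p = 0.322). Bcl6, the male-biased repressor, varied more within each sex than between them, at 20.9, 137, 56.2 and 39.4 CPM in male Fatp2-/- livers, against 43.5, 34.3, 18.2 and 81.3 CPM in female Fatp2-/- livers (log2 difference 0.49, S.E. 0.54, adjusted p = 0.627). Cish, a feedback inhibitor induced by STAT5, ranged even more widely among males, at 10.4, 0.353, 4.34 and 36.0 CPM in male Fatp2-/- livers, against 2.78, 6.67, 4.84 and 6.17 CPM in female Fatp2-/- livers (log2 difference 1.31, S.E. 0.85, adjusted p = 0.379).

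The called members of that list were receptors, transcriptional regulators and a binding protein. Esr1, the estrogen receptor alpha, stood at 11.7, 13.5, 12.3 and 11.995 CPM in male Fatp2-/- livers, against 37.5, 41.1, 46.7 and 41.0 CPM in female Fatp2-/- livers. The lowest female was 2.77 times the highest male (log2 difference -1.77, S.E. 0.10, adjusted p = 2.85e-06). Trim24, a corepressor of nuclear receptors, stood at 18.6, 20.7, 20.5 and 14.9 CPM in male Fatp2-/- livers, against 86.9, 79.8, 59.7 and 93.6 CPM in female Fatp2-/- livers, lower in every male (log2 difference -2.12, S.E. 0.16, adjusted p = 2.27e-05). Cux2, Prlr and Tox, given with the female-biased genes, completed the strong calls. Nr1i3, the xenobiotic receptor CAR, and Igfbp1, a binding protein of IGF1, were called lower with log2 differences of -0.70 (adjusted p = 0.0368) and -1.01 (adjusted p = 0.041), calls that were lost under 11 and 10 of 17 alternatives. Onecut1, the hepatocyte factor HNF6, was the only member called higher in males, at 65.6, 15.1, 65.4 and 76.7 CPM in male Fatp2-/- livers, against 16.9, 16.6, 16.2 and 20.8 CPM in female Fatp2-/- livers. The other 3 males stood well above all females, whereas black638 stood below them (log2 difference 1.64, S.E. 0.39, adjusted p = 0.0308), and the call was lost under 9 of 17 alternatives. Without black693 and black652 the list held 0 calls higher and 5 lower.

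Cytochromes P450 of the Cyp2 and Cyp3 families, which hydroxylate steroids and drugs, were split: 4 of 35 tested members were called higher in males and 9 lower, with a median log2 difference of 0.10. Beside Cyp2d9 and Cyp2u1, Cyp2f2, which oxidizes small aromatic compounds, was higher in males at 934, 729, 902 and 954 CPM in male Fatp2-/- livers, against 315, 495, 449 and 284 CPM in female Fatp2-/- livers. Both groups spread, without overlap (log2 difference 1.17, S.E. 0.18, adjusted p = 0.00377). Beside Cyp2b9, Cyp2b13 and Cyp3a16, Cyp2b10, the main CAR target, was lower in males at 2.47, 1.53, 3.44 and 2.62 CPM in male Fatp2-/- livers, against 30.9, 40.7, 20.4 and 4.45 CPM in female Fatp2-/- livers. In females black652 stood apart at the low end (log2 difference -3.28, S.E. 0.56, adjusted p = 0.00659). Cyp2c38, an arachidonic acid oxygenase, stood at 21.2, 15.2, 30.2 and 10.3 CPM in male Fatp2-/- livers, against 137, 130.2, 93.1 and 102 CPM in female Fatp2-/- livers, again lower in every male (log2 difference -2.61, S.E. 0.29, adjusted p = 0.000372). Cyp17a1, the 17alpha-hydroxylase of steroid synthesis, stood at 9.48, 18.4, 31.8 and 7.12 CPM in male Fatp2-/- livers, against 181, 237, 179.6 and 102 CPM in female Fatp2-/- livers. The males spread 4.47-fold, all below the females (log2 difference -3.41, S.E. 0.44, adjusted p = 0.00108). Cyp2c37 and Cyp2g1 had log2 differences of -1.04 and -1.72 (adjusted p = 0.0109 and 0.0246), and Cyp2g1 lost the call under 6 of 16 alternatives. Cyp2b10 lost it under 2 of 17 and Cyp2c37 under 1 of 17. Cyp2d11 and Cyp2a5, called at adjusted p values of 0.0356 and 0.0379, lost the call under 10 and 11 alternatives. Without black638 and black693 the family held 3 calls higher and 6 lower.

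Sulfotransferases and flavin monooxygenases, enzymes that add sulfate or oxygen to nitrogen and sulfur compounds, held calls lower in males. Of 16 tested members 10 were called lower and none higher, 4 had a positive difference and were not called, with a median log2 difference of -1.04 against -0.00 over all genes. Fmo2 stood at 4.94, 4.41, 4.82 and 10.2 CPM in male Fatp2-/- livers, against 51.9, 47.5, 26.6 and 37.9 CPM in female Fatp2-/- livers, with black693 the highest male (log2 difference -2.76, S.E. 0.30, adjusted p = 0.000339). Fmo1 stood at 161, 178, 176 and 156 CPM in male Fatp2-/- livers, against 279, 331, 312 and 259 CPM in female Fatp2-/- livers, a smaller difference with tight groups (log2 difference -0.84, S.E. 0.10, adjusted p = 0.000853). Sult2a7, a hydroxysteroid sulfotransferase, stood at 2.197, 0.765, 1.17 and 0.375 CPM in male Fatp2-/- livers, against 29.4, 13.1, 11.4 and 9.12 CPM in female Fatp2-/- livers. The lowest female was 4.15 times the highest male (log2 difference -3.84, S.E. 0.51, adjusted p = 0.0013). Papss2, which makes the sulfate donor, had a log2 difference of -1.25 (adjusted p = 0.00183), Fmo4 of -1.19 (adjusted p = 0.00499), Sult1a1 of -0.90 (adjusted p = 0.0058) and Sult1d1 of -1.27 (adjusted p = 0.00916). Without black638 and black693 the list held 7 lower, and without black693 and black652 it held 11. A filter asking for 10 counts in every library left 12 members and 6 calls.

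Glucuronosyltransferases and glutathione transferases, the other conjugating enzymes, split by subfamily. Of 30 tested members 7 were called higher in males and 5 lower, with a median log2 difference of 0.07. Gstp1 and Gstp2, the Pi class transferases, led the males, with Gstp1 at 454, 591, 308 and 534 CPM in male Fatp2-/- livers, against 60.0, 45.0, 65.0 and 41.2 CPM in female Fatp2-/- livers. The mean of males was 8.94 times that of females in Gstp1 (log2 difference 3.14, S.E. 0.23, adjusted p = 1.68e-05), and Gstp2 had a log2 difference of 3.20 (adjusted p = 8.17e-06), although reads can be shared between these near-identical copies. All called members of the Ugt2b subfamily, which conjugates steroids, were higher in males. Ugt2b1 stood at 582, 652, 611 and 579 CPM in male Fatp2-/- livers, against 165, 215, 172 and 204 CPM in female Fatp2-/- livers (log2 difference 1.66, S.E. 0.11, adjusted p = 1.09e-05), and Ugt2b35, Ugt2b37 and Ugt2b38 had log2 differences of 1.23, 0.53 and 4.63 (adjusted p = 8.3e-05, 0.00785 and 0.00148). All called members of the Ugt1a subfamily were lower in males. They were Ugt1a9, Ugt1a5 and Ugt1a1, the bilirubin transferase, with log2 differences of -1.79, -1.83 and -0.69 (adjusted p = 0.000874, 0.00304 and 0.0114). The Ugt1a genes share exons, so their split is uncertain. Mgst1, a membrane-bound transferase, was higher in males at 0.66 on the log2 scale, and Gstt3 and Gsto1 were lower at -1.15 and -0.56 (adjusted p = 0.009, 0.015 and 0.0175). Gstt3 and Gsto1 lost their calls under 2 and 6 of 17 alternatives. Without black638 the list held 3 calls lower, and without black638 and black693 it held 2.

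Major urinary proteins carry pheromones and are made in the liver, and 4 of 6 members found in the table were tested, with 3 called higher in males. Mup3 stood at 6606, 4453, 4645 and 5393 CPM in male Fatp2-/- livers, against 1073, 439.8, 344 and 235 CPM in female Fatp2-/- livers. The lowest male was 4.15 times the highest female (log2 difference 3.31, S.E. 0.43, adjusted p = 0.00117). Mup21 stood at 149.5, 123, 85.3 and 133 CPM in male Fatp2-/- livers, against 4.55, 1.07, 0.767 and 0.483 CPM in female Fatp2-/- livers, with black631 the highest female (log2 difference 6.10, S.E. 0.53, adjusted p = 8.3e-05). Mup20, the protein darcin that attracts females, had 2 counts in all females and 124 in males, a ratio of 70.1 with a counting interval of 19.0 to 585 (adjusted p = 0.00194). Mup5 did not follow the others. It stood at 19.7, 2840.4, 3136 and 29.5 CPM in male Fatp2-/- livers, against 1582, 1215, 2403 and 4736 CPM in female Fatp2-/- livers, so that 2 males, black629 and black693, lay near the control level and the other 2 lay among the females (log2 difference -0.75, S.E. 1.21, adjusted p = 0.751). In male and female controls Mup5 was at most 73.8 CPM. Members of this family are near-identical copies and can share reads.

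Targets of PPARalpha held calls in both directions between the sexes. Of 53 tested members of a list of canonical targets, 4 were called higher in males and 5 lower, with a median log2 difference of 0.03. The other 44 were not called. Both shares were above the 3.03% called higher and 3.77% called lower over all autosomal genes tested. Those called higher were the lipid droplet genes Cidea, Cidec and Plin2 and the transcription factor gene Creb3l3, and those called lower were Acot1, Acot3, Acot4, Abcd2 and Ucp2. Ppara itself stood at 80.3, 124, 124 and 75.6 CPM in male Fatp2-/- livers, against 123, 115, 59.7 and 156 CPM in female Fatp2-/- livers, and the groups overlapped (log2 difference -0.19, S.E. 0.27, adjusted p = 0.71). Several acyl-CoA thioesterases, which split acyl-CoA into fatty acid and CoA, were lower in males. Acot1, the cytosolic form, stood at 125, 109, 119.7 and 72.5 CPM in male Fatp2-/- livers, against 211, 267, 222 and 243 CPM in female Fatp2-/- livers, lower in every male with black693 the lowest (log2 difference -1.17, S.E. 0.16, adjusted p = 0.00168). Acot3, a peroxisomal form, stood at 6.18, 4.18, 5.51 and 1.75 CPM in male Fatp2-/- livers, against 87.6, 111, 114 and 78.4 CPM in female Fatp2-/- livers. The lowest female was 12.7 times the highest male (log2 difference -4.50, S.E. 0.30, adjusted p = 1.02e-05). Acot4, another peroxisomal form, stood at 17.0, 15.8, 16.8 and 11.7 CPM in male Fatp2-/- livers, against 44.5, 44.8, 41.5 and 47.8 CPM in female Fatp2-/- livers and was lower in males by less (log2 difference -1.57, S.E. 0.12, adjusted p = 3.92e-05). Acot6, on the peroxisomal list only, was called lower at an adjusted p of 0.0425 and lost the call under 13 of 17 alternatives. The Acot genes lie in 1 cluster on chromosome 12 and share sequence.

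Other called targets were Ucp2, a mitochondrial carrier, lower in males with a log2 difference of -0.97 (adjusted p = 0.00418), and Creb3l3, a transcription factor of fasting, higher at 0.46 (adjusted p = 0.0248), a call lost under 7 of 17 alternatives. DESeq2 called 8 targets higher and 8 lower, and without black693 there were 7 higher and 5 lower. Fatty acid hydroxylases of the Cyp4a group, which start omega-oxidation, were not called in Fatp2-/- livers. Cyp4a14 stood at 1922, 1274, 1881 and 1222 CPM in male Fatp2-/- livers, against 2292, 3701, 1999 and 2162 CPM in female Fatp2-/- livers. The highest male lay just below the lowest female (log2 difference -0.71, S.E. 0.23, adjusted p = 0.0895). Cyp4a10 stood at 358, 343, 422 and 265 CPM in male Fatp2-/- livers, against 512, 822, 456 and 444 CPM in female Fatp2-/- livers, also without overlap and short of the threshold (log2 difference -0.71, S.E. 0.21, adjusted p = 0.0693). DESeq2 called both genes lower in males. Of the 11 tested Cyp4 genes 3 were called higher in males, namely Cyp4f17 and Cyp4v3, with log2 differences of 0.57 and 0.67 (adjusted p = 0.0111 and 0.0135), and Cyp4f39, which lost its call under 14 of 16 alternatives.

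Several lipid droplet proteins were higher in males. Of 28 tested genes on the list of lipid droplets and triglyceride synthesis, 5 were called higher in males and 3 lower, with a median log2 difference of 0.23. Cidea, which fuses droplets into larger ones, stood at 13.9, 7.30, 50.0 and 2.44 CPM in male Fatp2-/- livers, against 0.107, 0, 0.118 and 0 CPM in female Fatp2-/- livers. The 4 females held 4 counts in all, and the males spread 20.5-fold with black650 at the top (log2 difference 8.13, S.E. 1.23, adjusted p = 0.003). Cidea lost its call under 1 of 16 alternatives, limma-voom (adjusted p = 0.0534). Cidec, a related fusion protein, stood at 11.1, 12.1, 27.4 and 10.1 CPM in male Fatp2-/- livers, against 5.62, 3.40, 3.60 and 3.59 CPM in female Fatp2-/- livers, again with black650 the highest male (log2 difference 1.87, S.E. 0.33, adjusted p = 0.00729). Plin2, which coats droplets, stood at 1244, 1084, 1165 and 935 CPM in male Fatp2-/- livers, against 501, 699.5, 621 and 507 CPM in female Fatp2-/- livers, with tight groups (log2 difference 0.91, S.E. 0.14, adjusted p = 0.00377). Fitm1 and Fitm2, of the endoplasmic reticulum, help droplets to form, and Fitm1 stood at 183, 122, 179.5 and 107 CPM in male Fatp2-/- livers, against 41.0, 25.5, 45.9 and 32.4 CPM in female Fatp2-/- livers. All males were above all females in Fitm1 (log2 difference 2.00, S.E. 0.22, adjusted p = 0.000408), and Fitm2 had a log2 difference of 0.46 (adjusted p = 0.0405), a call lost under 9 of 17 alternatives. Pparg, the nuclear receptor that drives several of these genes, stood at 12.2, 13.1, 14.2 and 11.1 CPM in male Fatp2-/- livers, against 9.31, 10.3, 10.6 and 8.96 CPM in female Fatp2-/- livers, without overlap and not called (log2 difference 0.34, S.E. 0.12, adjusted p = 0.111).

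The members called lower in males were enzymes of triglyceride synthesis. Lpin1, a phosphatidic acid phosphatase, stood at 42.2, 58.7, 70.0 and 73.8 CPM in male Fatp2-/- livers, against 422, 233, 228 and 81.8 CPM in female Fatp2-/- livers, the female black652 being close to the males (log2 difference -2.002, S.E. 0.40, adjusted p = 0.0133). Agpat9, a glycerol-3-phosphate acyltransferase, had a log2 difference of -0.88 (adjusted p = 0.0133), and Lpin2 of -0.54 (adjusted p = 0.0328), a call lost under 8 of 17 alternatives. Without black638 and black693 there were 5 calls higher, Fitm2 not among them, and no gene of the list was called lower, and without black629 there were 4 higher and 1 lower. The white fat markers were read beside these genes, since adipose tissue makes Cidea, Cidec and Plin2 as well. Of 7 adipocyte markers 3 were tested and none was called, and their sum was 26.2 to 68.2 CPM in males and 18.6 to 25.6 CPM in females. Adiponectin, Adipoq, stood at 0, 0.235, 0.0689 and 2.81 CPM in male Fatp2-/- livers, against 0.963, 0.126, 0 and 0 CPM in female Fatp2-/- livers. The adipocyte sum was highest, at 68.2 CPM, in black693, which was the lowest of the males in Cidea, Cidec, Plin2 and Fitm1. The sum was next highest, at 37.7 CPM, in black650, where Cidea and Cidec were highest. Cfd, another of these markers, had a male mean 8.40 times the female mean. It was not called, but was under 3 of 16 alternatives. The part of such tissue in the droplet genes was not tested.

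**Figure D2:**
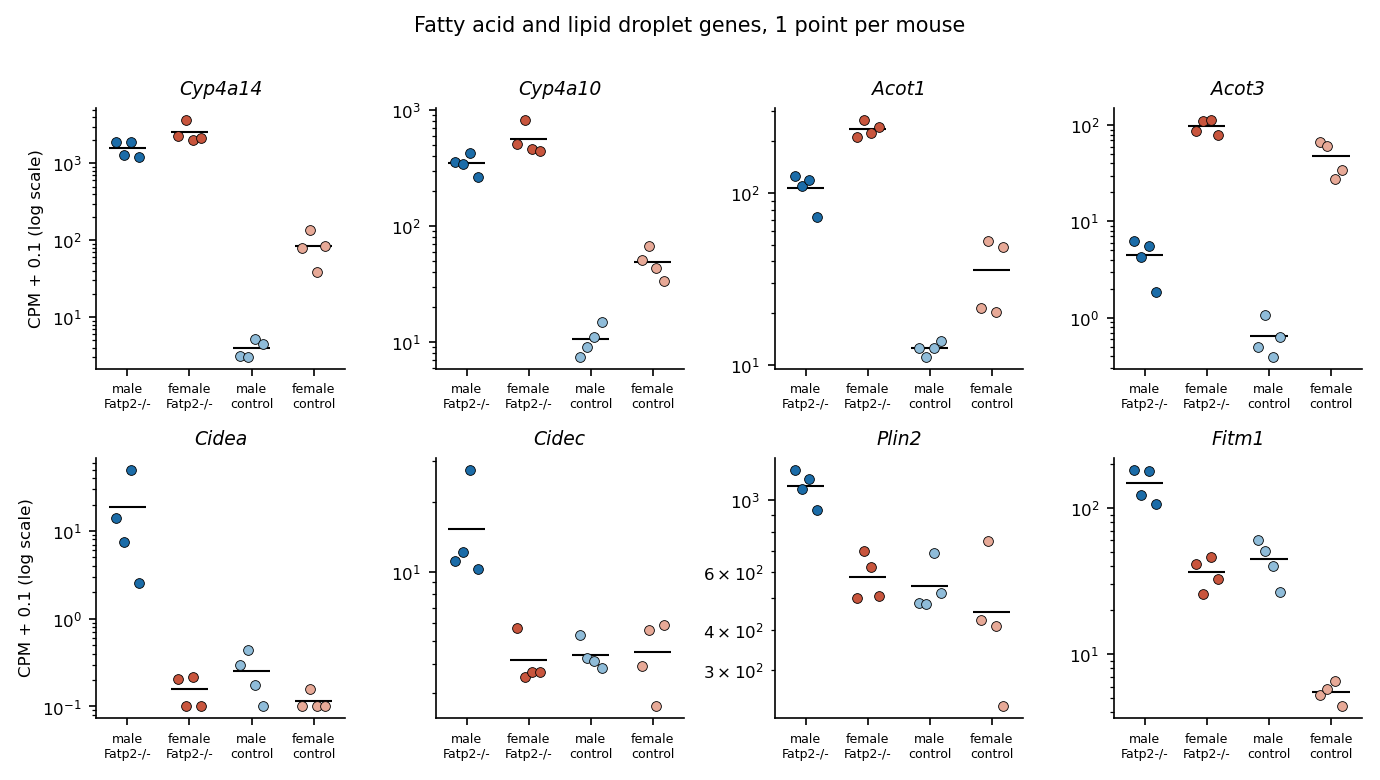
CPM of 8 fatty acid and lipid droplet genes in each mouse, with 0.1 added on a log scale and 1 point per mouse, the line marking the group mean. In Fatp2-/- livers Cyp4a14 and Cyp4a10 are close between the sexes while Acot1 and Acot3 are lower in males and Cidea, Cidec, Plin2 and Fitm1 are higher, and in control livers Cyp4a14 and Cyp4a10 lie far lower in males than in females.

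Peroxisomal genes moved in both directions. Of 44 tested members 6 were called higher in males and 5 lower, with a median log2 difference of 0.12. Scp2, the sterol carrier protein and thiolase that cleaves branched chains, stood at 4643, 4672, 5055 and 4423 CPM in male Fatp2-/- livers, against 1858, 1875, 1527 and 1856 CPM in female Fatp2-/- livers, higher in every male (log2 difference 1.38, S.E. 0.12, adjusted p = 8.94e-05). Phyh, which starts alpha-oxidation of phytanic acid, Amacr, the racemase of branched acyl-CoA, and Slc25a17, a peroxisomal carrier of CoA and other cofactors, were higher in males with log2 differences of 0.69, 0.49 and 0.62 (adjusted p = 0.00299, 0.00711 and 0.00143). Acox3, an oxidase of branched acyl-CoA, was higher at 0.34 (adjusted p = 0.0314), a call lost under 9 of 17 alternatives. Hacl1, the lyase of the same alpha-oxidation route as Phyh, was lower in males at -0.71 (adjusted p = 0.0094), as were Abcd2, Acot3, Acot4 and Acot6. Without black638 and black693 the list held 4 calls higher and 3 lower.

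Calls in mitochondrial beta-oxidation, fatty acid uptake and the synthesis of fatty acids and cholesterol stand beside the share over all autosomal genes tested. That share was 3.03% called higher and 3.77% called lower in males. Lists as short as these hold few calls at such shares, so the low counts are not a result about these programs. None of 29 tested genes of mitochondrial beta-oxidation and ketogenesis and none of 20 genes of fatty acid uptake and activation was called, with median log2 differences of -0.04 and 0.15. Cd36, a fatty acid translocase, stood at 105, 72.5, 142 and 113 CPM in male Fatp2-/- livers, against 171, 192, 162 and 131 CPM in female Fatp2-/- livers, with overlap (log2 difference -0.62, S.E. 0.19, adjusted p = 0.0767). Acsl1, an acyl-CoA synthetase, had a log2 difference of 0.34 (adjusted p = 0.119). DESeq2 called both Cd36 and Acsl1. Of 26 genes of fatty acid synthesis, elongation and desaturation, Elovl3 was called higher and Pnpla3, a lipase with a known tie to fatty liver in humans, lower. Pnpla3 stood at 12.7, 24.2, 13.7 and 14.5 CPM in male Fatp2-/- livers, against 37.7, 67.0, 238 and 27.4 CPM in female Fatp2-/- livers, with black634 far above the other females (log2 difference -2.52, S.E. 0.61, adjusted p = 0.0341), and lost its call under 7 of 17 alternatives. Among 23 cholesterol genes, Insig2, which holds the sterol sensor in the endoplasmic reticulum, was the only call, higher in males at 0.70 on the log2 scale (adjusted p = 0.00298). Of 22 genes of gluconeogenesis and glycolysis only Gys2, the liver glycogen synthase, was called, which it was not under 8 of 17 alternatives, and of 19 clock genes none was.

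Bile acid, steroid and retinol metabolism each held calls in both directions. Over all autosomal genes tested, 3.03% were called higher and 3.77% lower. Of 31 tested genes of bile acid synthesis and transport, 5 were called higher in males and 6 lower, with a median log2 difference of 0.11. Cyp8b1, which sets the share of cholic acid, stood at 519, 575, 492 and 381 CPM in male Fatp2-/- livers, against 180.5, 112, 304 and 189 CPM in female Fatp2-/- livers, higher in every male than in any female (log2 difference 1.30, S.E. 0.26, adjusted p = 0.013). Slco1a1, an uptake carrier, stood at 337, 395, 406 and 358 CPM in male Fatp2-/- livers, against 79.8, 40.7, 119 and 184 CPM in female Fatp2-/- livers, likewise higher in males (log2 difference 1.80, S.E. 0.36, adjusted p = 0.0134). Cyp39a1, an oxysterol hydroxylase, stood at 2.75, 3.88, 5.51 and 7.62 CPM in male Fatp2-/- livers, against 24.5, 46.8, 16.8 and 21.0 CPM in female Fatp2-/- livers, lower in every male (log2 difference -2.48, S.E. 0.37, adjusted p = 0.00257). Abcc4, an export pump of the sinusoidal membrane, stood at 1.92, 2.71, 1.93 and 2.87 CPM in male Fatp2-/- livers, against 9.26, 13.2, 7.08 and 6.06 CPM in female Fatp2-/- livers, also lower (log2 difference -1.93, S.E. 0.27, adjusted p = 0.00176). Akr1d1, the steroid 5beta-reductase of bile acid synthesis, and Abcb1a, a drug export pump, were lower with log2 differences of -0.84 and -1.84 (adjusted p = 0.00203 and 0.00721), and Klb, the FGF coreceptor, lost its call under 10 alternatives. Cyp7a1, the rate-limiting enzyme of bile acid synthesis, stood at 20.4, 51.7, 20.6 and 21.5 CPM in male Fatp2-/- livers, against 102, 50.1, 39.2 and 30.3 CPM in female Fatp2-/- livers and was not called (log2 difference -0.98, S.E. 0.41, adjusted p = 0.173).

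Steroid hormone metabolism held 5 calls higher and 3 lower among 22 tested genes. Beside Cyp7b1, those higher in males included the hydroxysteroid dehydrogenases Hsd3b2 and Hsd3b3 and the testosterone 5alpha-reductase Srd5a1, with log2 differences of 1.42, 0.96 and 0.99 (adjusted p = 7.8e-05, 0.00193 and 0.00299). Beside Cyp17a1 and Akr1d1, Akr1c20 was lower at -0.47 (adjusted p = 0.029), a call lost under 9 of 17 alternatives. Of 27 tested genes of retinol metabolism, 3 were higher and 2 lower, against 3.03% and 3.77% over all autosomal genes tested. On a list this short, so few calls are not a result about the program. Aox3, a retinal and drug oxidase, stood at 657, 868, 976 and 794 CPM in male Fatp2-/- livers, against 211, 243, 199 and 290.4 CPM in female Fatp2-/- livers, higher in every male (log2 difference 1.78, S.E. 0.16, adjusted p = 8.54e-05). Its neighbour Aox1 and the alcohol dehydrogenase Adh4 were higher with log2 differences of 1.02 and 0.52 (adjusted p = 0.002 and 0.0266), and Adh4 lost its call under 6 of 17 alternatives. Lrat, which stores retinol as esters, and Rdh9 were lower at -0.70 and -1.33 (adjusted p = 0.0193 and 0.0283), calls lost under 6 and 8 of 17 alternatives. No retinol gene was called lower when black638, black643 or black652 was left out, and 1 was when black629 or black631 was.

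Several terminal complement components were higher in males. Of 26 tested complement genes 4 were called higher and 2 lower, with a median log2 difference of 0.23, and all 4 belong to the membrane attack complex. C8a stood at 519, 594, 445 and 592 CPM in male Fatp2-/- livers, against 122, 135, 117 and 168 CPM in female Fatp2-/- livers (log2 difference 1.97, S.E. 0.15, adjusted p = 2.2e-05), C8b had a log2 difference of 1.65 (adjusted p = 0.000217), and C9, the pore-forming member, stood at 309, 344, 368 and 402 CPM in male Fatp2-/- livers, against 78.5, 101, 77.3 and 126 CPM in female Fatp2-/- livers (log2 difference 1.87, S.E. 0.17, adjusted p = 8.54e-05). In C6, C8a, C8b and C9 alike no male overlapped with a female. The lower count of the list was 1 without black629, black638, black650 or black631, and DESeq2 called 9 higher and 5 lower. Mbl2, the lectin that starts the lectin pathway, was lower at -0.97 (adjusted p = 0.00109). C1qb, made by macrophages, was lower at -0.53 (adjusted p = 0.0372) and lost its call under 8 alternatives. Of 33 tested acute phase and coagulation genes, 5 were lower in males and Serpina3k was higher. Over all autosomal genes tested, 3.77% were called lower and 3.03% higher. The 1 call higher is near that share, so it is not a result about the list. The lower ones included serum amyloid P, Apcs, at 52.9, 43.3, 38.9 and 48.7 CPM in male Fatp2-/- livers, against 86.7, 62.5, 97.0 and 71.8 CPM in female Fatp2-/- livers (log2 difference -0.81, S.E. 0.15, adjusted p = 0.0102), and lipocalin 2, Lcn2, at 1.30, 1.71, 2.27 and 2.44 CPM in male Fatp2-/- livers, against 5.19, 5.67, 4.01 and 3.81 CPM in female Fatp2-/- livers (log2 difference -1.29, S.E. 0.24, adjusted p = 0.0103). Orm3 and Orm2, orosomucoid copies, had log2 differences of -1.75 and -1.02 (adjusted p = 0.00136 and 0.0246), and Orm2 lost its call under 5 of 17 alternatives.

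Several markers of immune cells were lower in male Fatp2-/- livers. Neutrophil markers S100a8 and S100a9, calprotectin subunits, stood at 0.481, 0.412, 0.138 and 0.375 CPM in male Fatp2-/- livers, against 2.14, 3.40, 2.01 and 1.34 CPM in female Fatp2-/- livers for S100a8 (log2 difference -2.64, S.E. 0.40, adjusted p = 0.0032) and at 0.549, 0.588, 0.344 and 0.625 CPM in male Fatp2-/- livers, against 1.77, 4.03, 2.24 and 1.61 CPM in female Fatp2-/- livers for S100a9 (log2 difference -2.18, S.E. 0.37, adjusted p = 0.00583). All levels were low, and no male reached a female. Only 3 of the 8 neutrophil markers had enough counts to be tested, Ngp being the third, and they had them because of the females. Ngp held 6 counts in all males and 59 in females. Markers kept in this way are likely to be called lower in males, so the 3 calls are not separate evidence. The sum over all 8 markers was 1.35 to 1.58 CPM in males and 4.83 to 9.76 CPM in females. Of 9 tested lymphocyte markers 4 were called lower, the T cell genes Cd3e, Cd3d and Cd8a and the granzyme Gzma, against 3.77% of all genes tested. Another 3 of the 9 had a positive difference and were not called. Cd3d held 7 counts in all males and 67 in females, so it too was tested because of the females. The sum over 11 markers overlapped, at 6.20 to 12.5 CPM in males and 9.62 to 17.4 CPM in females. Cd3e stood at 0.412, 0.412, 0.413 and 0.687 CPM in male Fatp2-/- livers, against 1.82, 1.64, 1.24 and 1.39 CPM in female Fatp2-/- livers (log2 difference -1.67, S.E. 0.30, adjusted p = 0.00816). Of 10 tested Kupffer cell and macrophage markers 4 were called lower and none higher, and the sum over the 10 was 374 to 490 CPM in males and 538 to 703 CPM in females. Clec4f, the lectin of Kupffer cells, stood at 101, 93.4, 91.8 and 119 CPM in male Fatp2-/- livers, against 148, 134, 141 and 123 CPM in female Fatp2-/- livers, a small difference without overlap (log2 difference -0.45, S.E. 0.11, adjusted p = 0.0378). Cd5l and Adgre1, the F4/80 antigen, were the other macrophage calls beside C1qb. The Kupffer count ran between 0 and 7 over the alternatives, 7 without black693 and black652, 3 without black638 and black693, and 0 when black629, black638, black650 or black631 was left out.

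Other non-parenchymal lists held calls as well. Fcgr2b, Lyve1 and Oit3 of 8 sinusoidal endothelial markers were called lower in males, with sums of 331 to 412 CPM in males and 451 to 534 CPM in females, and none was called without black693 and black652 or without black638 and black693. Colec11 and Lrat of 10 stellate cell markers were called lower, and the cholangiocyte marker Sox9 was called higher, calls that did not hold under every alternative. Stellate sums were 241 to 603 CPM in males, black693 being the highest, and 315 to 429 CPM in females. The exocrine pancreas genes Cela1 and Ctrl were called higher in males. Cela1 kept its call under all 17 alternatives, also without black638 and black693, and stood at 27.1 to 68.3 CPM in control livers. Ctrl stood at 0.343, 12.5, 0.895 and 7.25 CPM in male Fatp2-/- livers, against 0.696, 0.0630, 0.236 and 0.215 CPM in female Fatp2-/- livers. Its high values were those of black638 and black693, the libraries with the highest pancreas sums, and without these 2 mice it was not called. Xirp1, a muscle protein, was called higher at 4.33, 2.06, 1.52 and 10.9 CPM in male Fatp2-/- livers, against 1.12, 0.567, 1.12 and 0.215 CPM in female Fatp2-/- livers (log2 difference 2.60, S.E. 0.67, adjusted p = 0.0419), and lost its call without black693 and black652. How far other cells and tissues shaped the gene differences above was not tested.

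**Figure D3:**
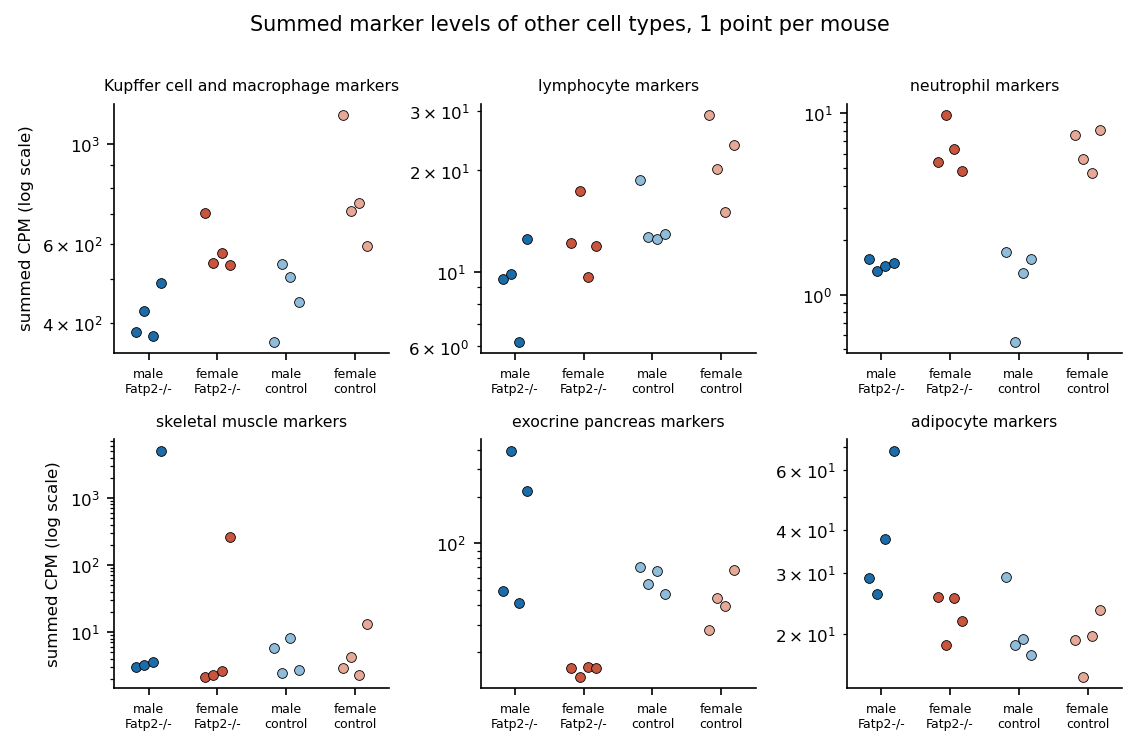
Summed CPM of markers of 6 other cell types in each mouse on a log scale, 1 point per mouse, for male and female Fatp2-/- and male and female control livers. Kupffer cell and neutrophil sums are lower in all 4 male than in all 4 female Fatp2-/- livers, muscle markers stand out in black693 and black652, and pancreas markers in black638 and black693.

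The same contrast in control livers, fitted on 8 other mice, called 315 autosomal genes higher in males (2.42% of 13035 tested) and 386 lower (2.96%). Of the 393 genes called higher in Fatp2-/- males, 158 were also called higher in control males, 40.2% of the Fatp2-/- list and 50.2% of the control list. Of the 488 called lower, 183 were also called lower in controls, 37.5% and 47.4% of the lists. No gene was called in opposite directions. Of the 382 genes called higher that could be tested there, 363 were positive, with a median log2 difference of 0.84 in Fatp2-/- and 0.80 in control livers. Of 479 called lower, 470 were negative, with medians of -0.88 in Fatp2-/- and -0.80 in control livers. Genes picked by their call in controls had medians of 0.60 in Fatp2-/- and 0.99 in control livers for the 310 higher ones tested in both, and of -0.84 in Fatp2-/- and -1.33 in control livers for the 372 lower ones. Each pair of medians was larger in size in the genotype whose calls picked the genes. Over the 341 genes called in both genotypes, the median absolute log2 difference was 1.30 in Fatp2-/- and 1.46 in control livers, and 116 were larger in Fatp2-/- livers. With upper-quartile scaling the median log2 difference over all genes in controls was -0.12, against -0.03 with TMM, and the control calls were 274 higher and 526 lower.

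**Figure D4:**
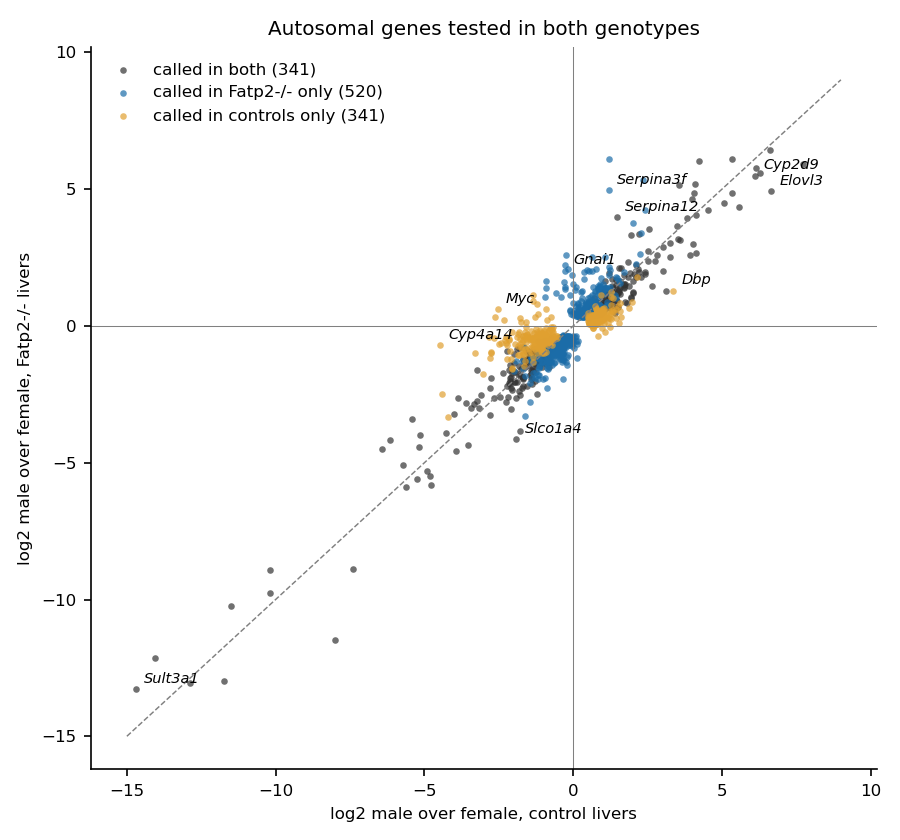
Male over female log2 difference in Fatp2-/- livers (vertical) against control livers (horizontal), 1 point per autosomal gene tested in both genotypes and called in either, with the line of equal differences dashed. The 341 genes called in both genotypes lie in the upper right and lower left, 520 further genes were called in Fatp2-/- livers alone and 341 in control livers alone, and Cyp4a14 lies at -0.71 vertically and at -4.46 horizontally.

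By list, the male-biased genes held 21 of 22 called higher in Fatp2-/- and 20 of 23 in control livers, with medians of 3.25 and 3.57, and the female-biased genes held 23 of 28 lower in Fatp2-/- and 24 of 28 in control livers, with medians of -3.35 and -3.12. The regulator list held 7 genes lower in both genotypes, Nr1i3, Esr1, Igfbp1, Prlr, Tox, Cux2 and Trim24. Sulfotransferases and flavin monooxygenases held 10 of 16 lower in Fatp2-/- and 11 of 18 in control livers, where Papss1 was called higher. Counts differed more in the lipid droplet genes, with 5 of 28 higher in Fatp2-/- and 1 of 26 in control livers. They also did in the PPARalpha targets, with 5 of 53 lower in Fatp2-/- and 9 of 50 in control livers. Cidea, 1 of the 5 droplet genes, was at most 0.344 CPM in control livers and too low to be tested there. Shifts of like size were found in other lists. Calls lower in males in Fatp2-/- and control livers were 9 and 6 for the Cyp2 and Cyp3 families and 6 and 3 for bile acids. They were 5 and 2 for the acute phase list, and also for glucuronosyltransferases with glutathione transferases. These counts are not tests of a difference.

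**Figure D5:**
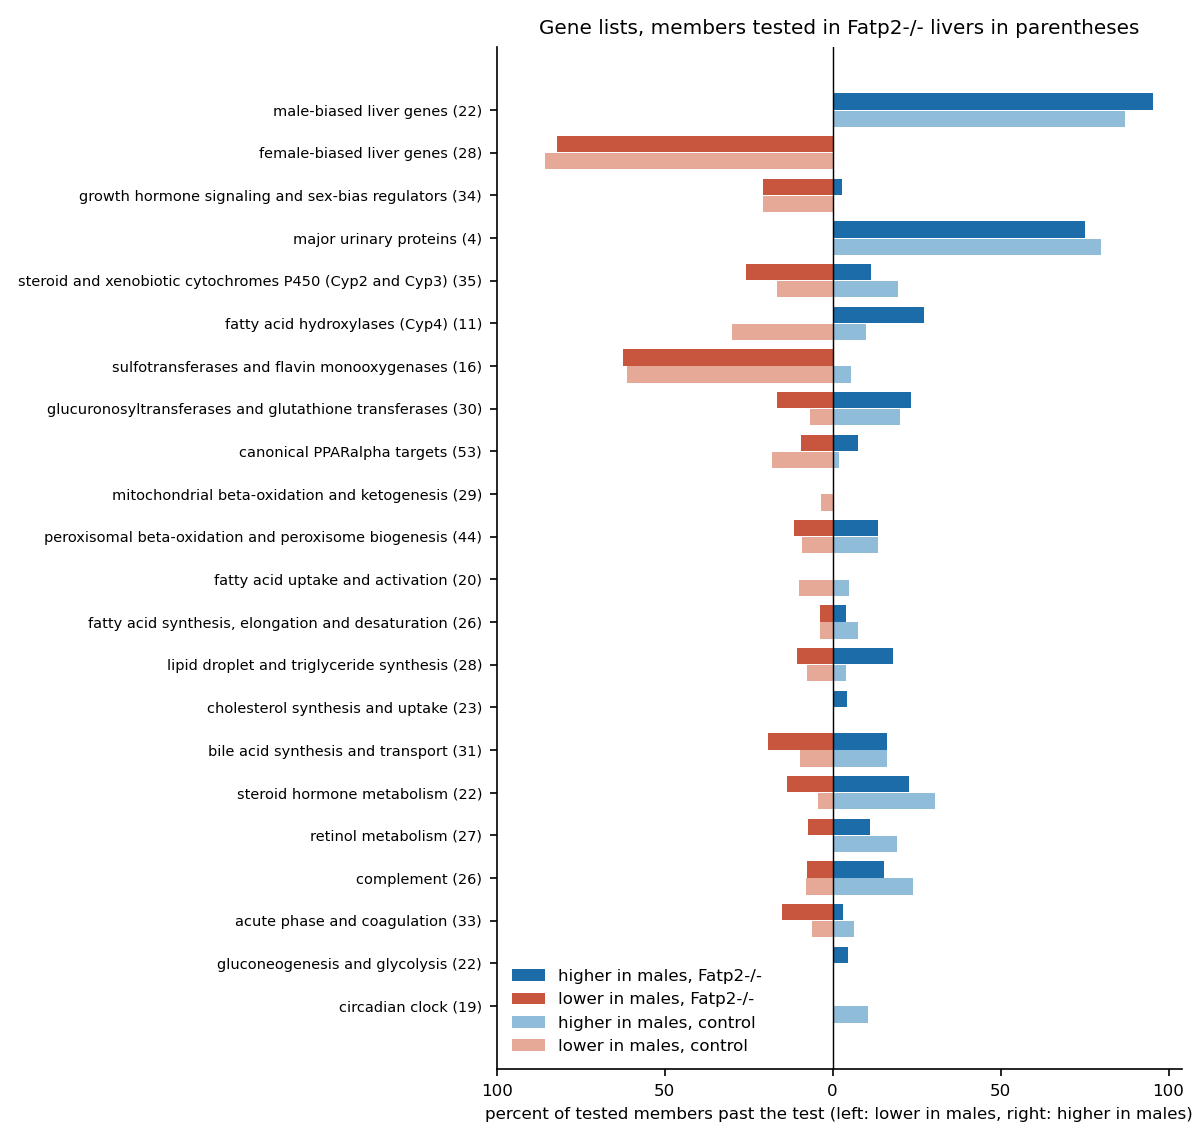
Share of the tested members of 22 gene lists that were called higher (right) and lower (left) in males, in percent, in Fatp2-/- (dark bars) and control livers (light bars), with the number tested in Fatp2-/- livers in parentheses after each name. Male-biased genes, female-biased genes, major urinary proteins and sulfotransferases with flavin monooxygenases have the longest bars in both genotypes, and mitochondrial beta-oxidation, fatty acid uptake and the clock have no bar in Fatp2-/- livers.

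Whether the male-female difference itself differed between genotypes was tested in a fit over all 16 livers, which called 1 of 13681 autosomal genes (0.00731%). At an unadjusted p under 0.05 there were 842, limma-voom also called 1, and DESeq2 called 31, and without a filter on low counts edgeR called 18. The called gene was Cyp4a14, a fatty acid omega-hydroxylase on chromosome 4. Its Fatp2-/- values are given above, and it stood at 3.05, 2.96, 5.14 and 4.31 CPM in male controls and 79.5, 135, 38.2 and 84.6 CPM in female controls. The log2 difference between the sexes was -0.71 in Fatp2-/- and -4.46 in control livers, so that it was smaller with FATP2 absent by 3.76 on the log2 scale (S.E. 0.46, adjusted p = 0.00344). The call was kept under all 24 alternatives. Its relative Cyp4a10 showed log2 differences of -0.71 in Fatp2-/- and -2.22 in control livers, and the difference between genotypes, 1.52 with an unadjusted p of 0.00051, did not pass the adjustment (adjusted p = 0.399).

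No other gene passed, and the next in order are given as values. Gnai1, an inhibitory G protein subunit, stood at 3.78, 5.82, 6.96 and 4.81 CPM in male Fatp2-/- livers, against 1.55, 1.07, 0.885 and 1.61 CPM in female Fatp2-/- livers (log2 difference 2.02, S.E. 0.27, adjusted p = 0.00131), and at 1.33, 0.893, 1.17 and 0.931 CPM in male controls and 1.53, 1.01, 0.996 and 1.70 CPM in female controls. Males without FATP2 were above every other mouse in this gene, and the difference between genotypes was 2.32 (unadjusted p = 2.34e-05, adjusted p = 0.165). The predicted genes Gm28182 and Gm16551 had differences between genotypes of 5.33 and 1.96 (adjusted p = 0.234 and 0.269). Nt5e, the ectonucleotidase CD73, was lower in males by log2 -2.65 in Fatp2-/- and -3.88 in control livers (adjusted p of the difference = 0.234). Serpina12 differed by 3.99 and 1.47 (adjusted p = 0.269), and Myc, which was not called in Fatp2-/- livers, by 0.63 and -2.54 (adjusted p = 0.297). Ero1lb, an oxidase of the endoplasmic reticulum, differed by 0.46 and 1.40 (adjusted p = 0.234), Stbd1, which binds glycogen, by -0.36 and 0.83 (adjusted p = 0.297) and Lrp2bp by -0.44 and -2.67 (adjusted p = 0.269).

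Genes called in Fatp2-/- livers with an unadjusted p above 0.05 in controls, ranked by their Fatp2-/- difference, began with Gm31121 and included Osbpl3, an oxysterol-binding protein, at 6.87, 4.30, 8.61 and 4.56 CPM in male Fatp2-/- livers, against 1.44, 1.32, 1.77 and 1.07 CPM in female Fatp2-/- livers (log2 difference 2.09, S.E. 0.28, adjusted p = 0.0013). In controls Osbpl3 differed by -0.19, and the difference between genotypes had an adjusted p of 0.314. Cav1, the caveolin of plasma membrane pits, stood at 11.6, 6.88, 17.4 and 14.4 CPM in male Fatp2-/- livers, against 3.42, 3.09, 2.60 and 3.00 CPM in female Fatp2-/- livers (log2 difference 2.03, S.E. 0.26, adjusted p = 0.00114), against a control log2 difference of 0.65 (adjusted p of the difference between genotypes = 0.723). Serpina9, Fmn2 and Dusp8 were higher in Fatp2-/- males and Gng7 was lower, with log2 differences of 2.52, 2.23, 2.09 and -2.27, and adjusted p values of the difference between genotypes of 0.798, 0.816, 0.79 and 0.816. Among droplet genes the sexes differed in Cidec by 1.87 in Fatp2-/- and -0.05 in control livers (adjusted p of the difference = 0.399) and in Plin2 by 0.91 and 0.25 (adjusted p = 0.816). Fitm1 differed in both genotypes, by 2.00 and 3.03, on levels of 60.2, 50.7, 40.2 and 26.3 CPM in male and 5.16, 5.68, 6.44 and 4.28 CPM in female controls.

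In the other direction, genes called in controls with an unadjusted p above 0.05 in Fatp2-/- livers often varied widely between mice. Dbp, a clock output factor, stood at 6.66, 2.18, 33.1 and 1.19 CPM in male Fatp2-/- livers, against 7.76, 1.57, 2.95 and 4.72 CPM in female Fatp2-/- livers (log2 difference 1.29, S.E. 0.87, adjusted p = 0.396), against a control log2 difference of 3.36 (adjusted p = 0.0134). Gadd45g, a stress-induced growth regulator, stood at 51.8, 61.7, 113 and 222 CPM in male Fatp2-/- livers, against 177, 56.2, 143 and 205 CPM in female Fatp2-/- livers (log2 difference -0.40, S.E. 0.47, adjusted p = 0.657), against -2.82 in controls (adjusted p = 0.0113). Vldlr, a lipoprotein receptor, stood at 1.24, 0.353, 1.93 and 12.4 CPM in male Fatp2-/- livers, against 12.8, 10.7, 7.97 and 3.59 CPM in female Fatp2-/- livers, where black693 lay among the females and the other males below them (log2 difference -1.15, S.E. 0.79, adjusted p = 0.405). Without black693 and black652 Vldlr was called lower in Fatp2-/- males too. Ppp1r3g, Prelid2, Pnpla5, Rgs1 and Rnf225 complete these genes, with Fatp2-/- log2 differences between -0.98 and 0.33, and for none of the genes of this paragraph did the difference between genotypes pass the adjustment.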

How the data were processed

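RNA of whole liver of 16 mice, 4 per sex and genotype, was sequenced as paired ends. The authors mapped reads with TopHat2 2.0.12 and Bowtie2 2.2.3 (2 mismatches) to a genome named GRCm38 or mm10 and counted reads on genes in the union mode of HTSeq 0.6.1, which gave the raw counts; strand use is not given in the sources used here, so overlapping and antisense genes cannot be told apart. The authors also deposited FPKM values, and fold changes and p values of their own comparisons; neither was used for any result. Gene IDs are those of a C57BL/6NJ annotation, so no coordinates from the files are printed, and the promoter windows carry those of RefSeq's GRCm38.p6 tables, matched by symbol and chromosome.

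Of 41100 rows, 4 without a gene were dropped. Male over female was fitted within the 8 Fatp2-/- and within the 8 control libraries, and the difference between genotypes over all 16, with edgeR 4.0.16 (R 4.3.3) in its quasi-likelihood test, after filterByExpr (minimum count 10, minimum total 15) and TMM, with Benjamini-Hochberg adjustment over all genes kept. CPM use TMM factors over all 16 libraries. Total counts of the Fatp2-/- libraries, 15546751 to 18237325, set the precision, and counting intervals (95%) cover counting error only. Named genes were Slc27a2, the 12 largest called increases and 12 decreases without overlap and with a mean log2 CPM of at least 0, up to 4 members of each list by adjusted p, the 10 smallest p values for the difference between genotypes, up to 10 genes called in 1 genotype with an unadjusted p above 0.05 in the other, and Ghr, Stat5b, Igf1, Bcl6, Cux2, Ntrk2 and Ppara; some genes that these rules name are not reported here. The other 83 genes were added after their values were seen. The 22 program and 14 marker lists matched 767 of 852 entries. Members and lists were chosen with earlier results of these data known, so lists are described by counts and medians without a test. Steps were tested on simulated data. Alternatives were a fold limit, RLE and upper-quartile factors, other filters, DESeq2 1.42.0, limma-voom (limma 3.58.1), 1 fit over 16 livers, and left-out mice.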

Additional observations from a re-analysis of the deposited data

Results flagged for a closer look

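The marker sums and a chosen part of the genes of the report were checked for outlying mice, in 196 groups of 4 mice. In each, the highest and the lowest mouse were set against the other 3. A mouse was marked when its gap to the nearest, as a share of the whole range, was above Dixon's 95% limit for 4 values. This marked 20 groups, and chance alone marks about 5% of groups.

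Several of these concerned markers of other tissues or the male black693. Skeletal muscle markers summed to 5077 CPM in the male black693 (other males 3.02 to 3.58) and to 264 CPM in the female black652 (other females 2.14 to 2.60). Stellate cell markers summed to 603 CPM in black693 (other males 241 to 259), and Adipoq stood at 2.81 CPM there (other males 0 to 0.235), Cd3e at 0.687 CPM (0.412 to 0.413), Fmo2 at 10.2 CPM (4.41 to 4.94) and Vldlr at 12.4 CPM (0.353 to 1.93). Pancreas markers were lowest in the female black643, at 13.8 CPM (other females 15.7 to 16.05). What part other tissue had in the gene values was not tested.

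Single genes stood apart in other males. In black638 Cyp7a1 stood at 51.7 CPM (other males 20.4 to 21.5), Pitx3 at 79.0 CPM (40.5 to 44.4) and Pnpla3 at 24.2 CPM (12.7 to 14.5). In black650 Cidec stood at 27.4 CPM (10.1 to 12.1) and Sult3a1 at 0.138 CPM (0 in the others). Among females, black631 was high in Sult3a2 at 205 CPM (other females 7.05 to 30.4), Cidec at 5.62 CPM (3.40 to 3.60), Mup21 at 4.55 CPM (0.483 to 1.07) and Adipoq at 0.963 CPM (0 to 0.126). A1bg stood at 2927 CPM in black634 (171 to 461), where Scp2 was low at 1527 CPM (1856 to 1875), and Onecut1 at 20.8 CPM in black652 (16.2 to 16.9).

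The difference between the sexes itself differed between genotypes for Cyp4a14, by 3.76 on the log2 scale, with an adjusted p of 0.00344 in edgeR's test over all 16 livers. The difference was -0.71 in Fatp2-/- and -4.46 in control livers.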

How the results depend on the processing

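Each count was recomputed with 1 choice changed at a time. An added limit of 1.5 on the absolute log2 difference left 102 genes higher and 113 lower in Fatp2-/- males, 86 higher and 164 lower in control males, and 125 called in both genotypes. DESeq2 called 677 higher and 720 lower in Fatp2-/- males, 675 higher and 769 lower in control males, 630 in both genotypes and 31 for the difference between genotypes. Without a filter on low counts there were 584 genes lower in control males and 18 for the difference between genotypes. A fit over all 16 livers gave 281 lower in Fatp2-/- males, and 834 higher and 818 lower in control males. Without black638 and black693, an alternative chosen after seeing the data, 322 genes were lower in Fatp2-/- males. Upper-quartile factors gave 274 higher and 526 lower in controls.

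Leaving out 1 mouse at a time gave 243 to 544 genes higher and 245 to 687 lower in Fatp2-/- males, 151 to 630 higher and 171 to 653 lower in control males, 213 to 404 called in both genotypes, and 1 to 2 for the difference between genotypes, 2 being the count without the control male black655. No paired analysis was possible because the labels give no replicate numbers that groups share. Of 204 named genes tested in Fatp2-/- livers, 157 were called, 100 of them under every alternative, and none of the called changed its sign. A library that is left out also leaves fewer samples for the test, and the cause of the other changes was not tested. With 4 mice a group and 15546751 to 18237325 counts a library, differences in genes below about 1 CPM rest on few counts.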

Other observations

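Mup5, described among the urinary proteins, varied widely among Fatp2-/- males. Males black629 and black693 held 19.7 and 29.5 CPM and males black638 and black650 held 2840.4 and 3136 CPM, while the females held 1582, 1215, 2403 and 4736 CPM. No control liver of either sex passed 73.8 CPM. The values were chosen after they were seen and no cause was tested.

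Immediate early genes, which respond within minutes to handling, were not called between the sexes of the Fatp2-/- livers (0 of 9 tested), and their 10 members summed to 963 to 1482 CPM in males and 451 to 1134 CPM in females. The 7 cholangiocyte markers summed to 46.1 to 72.0 CPM in males and 35.0 to 53.6 CPM in females. Intestinal markers summed to 102 to 134 CPM in males and 75.2 to 107 CPM in females.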
